A study of Homo sapiens with 6 samples.

Results

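In H358 cells, a long-established lung adenocarcinoma line with epithelial features, 26 genes were read in the parental cells and at or below 10% of that level in both clones, derived for a study of the metastasis suppressor BRMS1. The clones, C1 and C2, carry the BRMS1v2 variant A273V on both copies, and the parental line (WT) carries wild-type BRMS1. Each group had 2 libraries of total RNA, and all cells grew in the same serum-containing medium. Each clone is 1 line, so the effect of the variant and of picking a clone cannot be told apart, and nothing in the labels tells how they were obtained or whether the 2 libraries of a group are separate cultures. The 26 genes were chosen by their values: at least 1 CPM (a gene's reads per 1000000 reads in genes) in both WT libraries, and at most 10% of the WT mean in each of the 4 clone libraries. Of 57445 genes in the table, 13933 met the WT minimum and 31 met both conditions. Of these 31, 5 were left out by a rule on symbols (those starting with COL, CTS, IFI, MAF, BATF or HIST, and ACAA2 and SLPI). Since the clone and WT values chose the genes, they are given as a description with no test. In bulk RNA, fewer cells making a transcript and less transcript per cell cannot be told apart.

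In general, long-term silence of a gene can be kept by chromatin. Promoters rich in CpG dinucleotides can be shut by DNA methylation or by histone marks laid down by Polycomb and by H3K9 methyltransferases, and such states are passed on when cells divide. BRMS1 acts in the SIN3-HDAC complex, which removes acetyl groups from histones. The 26 genes belong to no single pathway. They encode a membrane flippase, a transporter and a sulfotransferase, adaptors and scaffolds of the cell cortex and of growth factor signalling, 3 nuclear regulators, globins with their olfactory receptor neighbours, and non-coding RNAs.

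Library totals ran between 27527867 and 37146270 counts in genes. BRMS1 itself was read in all libraries, with 951 and 899 counts in C1, 815 and 813 in C2, and 1341 and 1030 in WT, and gene counts do not show the allele. FOS, named in the series title, had 440 and 504 counts in C1, 215 and 347 in C2, and 310 and 469 in WT. The cells were epithelial by their markers in all libraries: EPCAM, CDH1, 4 keratins, CLDN4 and ELF3 summed to between 6190 and 8260 CPM. Of 9 lung lineage markers NKX2-1 was read at 106 CPM in C1, 108 in C2 and 114 in WT. Its WT libraries lay far apart, at 4848 and 1935 counts. NAPSA had a lower mean in the clones, at 3.38 CPM in C1 and 4.16 in C2 against 7.52 in WT (45.0% and 55.3% of WT). SFTPB, SFTPC, SCGB1A1 and SCGB3A1 stood at 0 to 2 counts in every library. Markers of leukocytes summed to 2.11 to 5.09 CPM, of endothelium to 9.7 to 42.3 (mostly from KDR) and of fibroblasts to 12.7 to 24.5 (nearly all from LUM). Erythroid markers (ALAS2, SLC4A1 and AHSP) summed to 0 to 2 counts per library.

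The 26 genes together had 2.85 and 3.78 CPM in C1 and 2.78 and 5.97 CPM in C2, against 170.0 and 191.0 CPM in WT. In reads, they had 106 and 113 counts in C1 and 83 and 194 in C2, against 5232 and 5258 in WT. ATP8B2 gave the most clone reads, and without it the sums were 51 and 50 counts in C1, 45 and 68 in C2, and 4355 and 3899 in WT. Every gene had reads in both WT libraries. In the clones, 13 and 17 of the 26 genes had at least 1 read in the libraries of C1, and 14 and 17 in those of C2. For 7 genes all 4 clone libraries were at 0, 16 had at most 2 counts in any clone library, and only ATP8B2, KRT8P14 and SLC22A31 exceeded 10 counts in one. A count of 0 over both libraries of a clone allows up to 3 counts, or 0.0448 CPM in C1 and 0.0481 CPM in C2 (counting error only). The mean of a clone was at most 5.25% of WT in C1 and 7.05% in C2, with medians over the 26 genes of 0.538% and 0.899%.

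**Figure D1:**
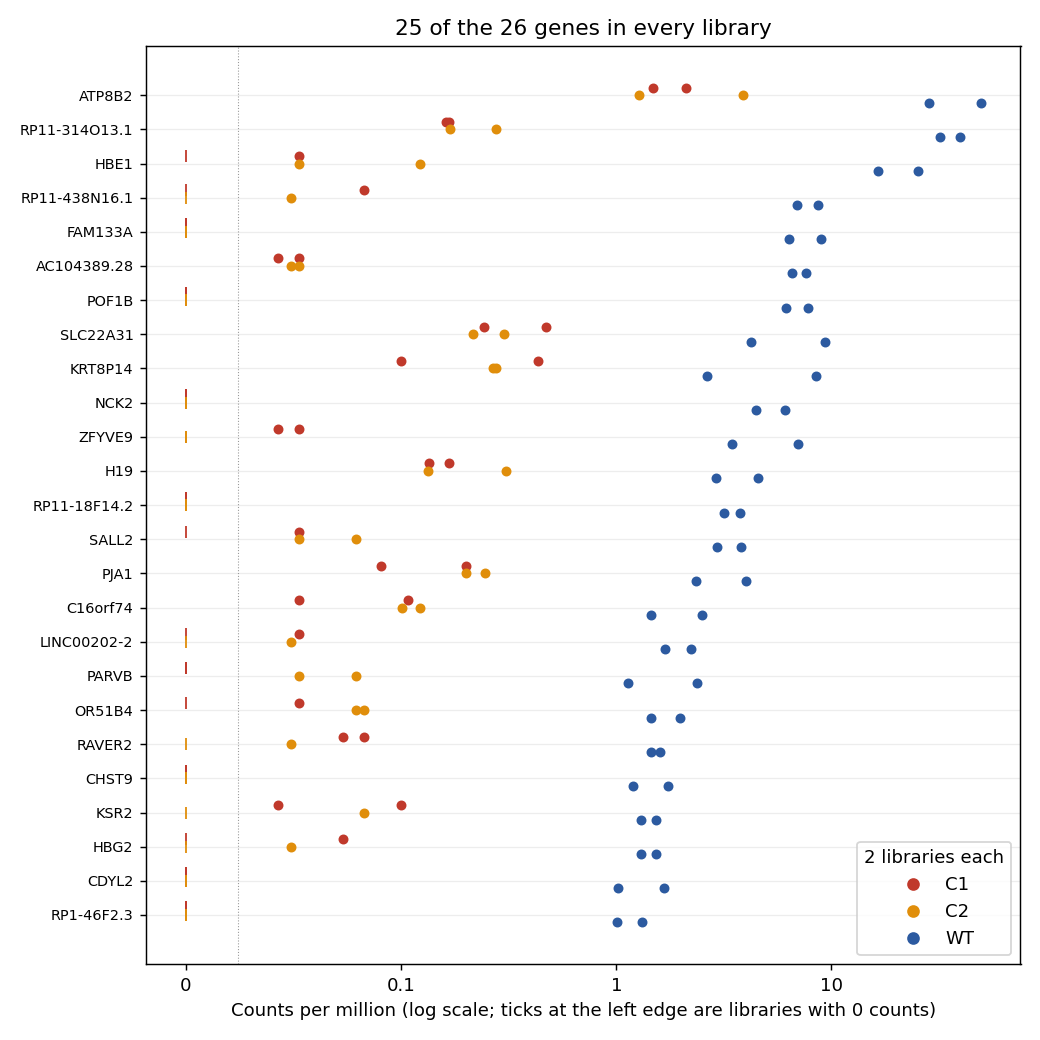
Level of 25 of the 26 genes in each library, in CPM on a log scale (C1 red, C2 orange, WT blue; 2 libraries per group; ticks at the left edge are libraries with 0 counts). Every WT point lies at 1 CPM or above, while the clone points reach at most 0.469 CPM (SLC22A31) for all genes except ATP8B2, which reached 3.88 CPM in 1 library of C2.

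The set is one-sided among these libraries. Under the same values turned round, 0 genes were at 1 CPM or more in all 4 clone libraries and at most 10% of that in WT. DHRS9, a retinol and steroid dehydrogenase, was the 1 gene read in C1 and off in WT, and NTNG1, a netrin-related axon guidance protein, the 1 gene read in C2 and off in WT. Between the clones, 0 genes were read in C1 and off in C2, and 0 the other way. Set against WT alone, C1 lacked 38 genes and C2 lacked 34 before the removal by name, of which 31 were the same. The number of genes grew with the ceiling: before removal by name, 15 genes lay at or under 2% of WT in their highest clone library, 20 at or under 5%, 31 at 10%, 63 at 20% and 253 at 50%. Just inside the ceiling were PJA1 (7.76%), H19 (8.27%) and ATP8B2 (9.95%). Just outside were SDR42E1, a dehydrogenase of the short-chain family (10.4%), NCR3LG1, the B7-H6 ligand of the natural killer receptor NKp30 (11.2%), and PNMA2, a neuronal antigen (11.4%).

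**Figure D2:**
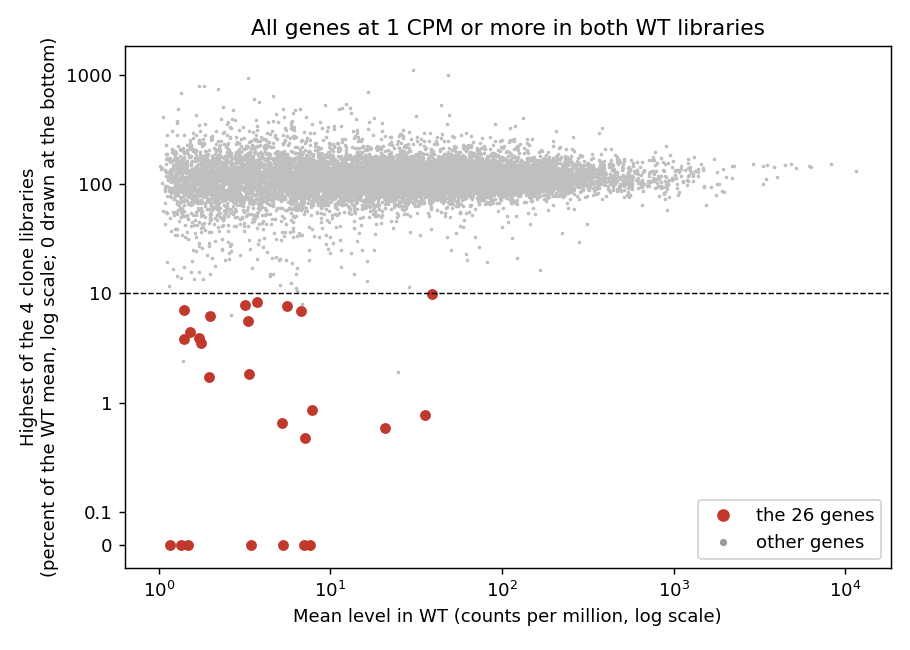
Highest of the 4 clone libraries as a percent of the WT mean against the WT mean in CPM, both on log scales, for all 13933 genes at 1 CPM or more in both WT libraries; red points are the 26 genes, the dashed line is 10%, and 0 is drawn at the bottom. The 7 points at the bottom had 0 counts in all 4 clone libraries, and the 5 grey points under the line are the genes left out by name.

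Most of the 26 genes were weakly expressed in WT. Scaled by exon length, their median level in WT was 1.63 CPM per kilobase (range 0.0773 to 21.7, 25 genes with a length), against 5.93 for all genes that met the WT minimum, and 23 of the 25 lay below that median. Shares by annotated type are given beside all genes that met the WT minimum, which were not matched for level. Of the 26, 19 were protein-coding (73.1% against 87.8%) and 3 were long intergenic non-coding RNAs (11.5% against 2.53%). The others were H19, a pseudogene of keratin 8, a transcribed pseudogene and 1 clone-based locus that was not matched to the annotation.

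Promoter sequence was matched for 17 of the 26 genes (RefSeq, build GRCh38.p14, 250 bases before the start to 50 after it). A window was called CpG-rich when its GC content was at least 50% and its CpG count at least 0.6 of that expected from its base composition. At least 1 CpG-rich window was found for 11 of the 17 genes (64.7%, exact 95% interval 38.3 to 85.8), against 86.1% of 10566 genes that met the WT minimum and 50.2% of all 27305 genes with a window. The 17 genes had 19 windows in all, against 15379 for the 10566 genes and 35116 for the 27305. A gene with more windows has more chances of a CpG-rich one. Neither comparison set was matched to the 26 genes for level in WT, so the shares are not like for like. The 5 genes below had windows and 0 counts in all 4 clone libraries. They are shown since they span both kinds: CHST9 and NCK2 are CpG-rich, while POF1B, FAM133A and LINC01404 (listed in the table as RP1-46F2.3) are not. NCK2 only just passed both limits (GC content 51.3%, CpG count 0.61 of that expected), while CHST9 passed them clearly (77.0% and 0.87). FAM133A passed the CpG limit (0.72) and missed that on GC content. Each sequence is the 250 bases before the start, 5′ to 3′ on the gene's strand, with every CpG in capitals.
CHST9, chr18:27185309-27185558, minus strand: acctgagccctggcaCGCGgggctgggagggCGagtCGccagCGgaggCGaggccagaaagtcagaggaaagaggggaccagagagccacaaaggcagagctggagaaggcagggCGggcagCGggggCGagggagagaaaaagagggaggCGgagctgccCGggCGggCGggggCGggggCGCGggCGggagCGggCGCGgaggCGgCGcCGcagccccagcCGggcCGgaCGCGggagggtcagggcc
NCK2, chr2:105851597-105851846, plus strand: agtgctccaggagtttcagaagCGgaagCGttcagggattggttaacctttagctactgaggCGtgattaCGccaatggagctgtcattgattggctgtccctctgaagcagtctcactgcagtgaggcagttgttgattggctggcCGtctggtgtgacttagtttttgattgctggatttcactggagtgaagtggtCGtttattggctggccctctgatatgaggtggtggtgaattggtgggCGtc
POF1B, chrX:85379666-85379915, minus strand: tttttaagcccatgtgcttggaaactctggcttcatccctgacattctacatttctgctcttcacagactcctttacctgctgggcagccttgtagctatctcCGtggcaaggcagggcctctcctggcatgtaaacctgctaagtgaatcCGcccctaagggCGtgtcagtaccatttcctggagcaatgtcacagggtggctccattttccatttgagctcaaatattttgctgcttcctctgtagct
FAM133A, chrX:93673956-93674205, plus strand: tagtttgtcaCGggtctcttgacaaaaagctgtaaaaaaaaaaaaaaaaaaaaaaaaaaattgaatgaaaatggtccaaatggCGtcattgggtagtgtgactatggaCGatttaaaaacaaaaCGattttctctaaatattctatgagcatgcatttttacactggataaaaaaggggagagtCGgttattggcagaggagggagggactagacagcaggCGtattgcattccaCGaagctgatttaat
LINC01404, chr12:110957819-110958068, minus strand: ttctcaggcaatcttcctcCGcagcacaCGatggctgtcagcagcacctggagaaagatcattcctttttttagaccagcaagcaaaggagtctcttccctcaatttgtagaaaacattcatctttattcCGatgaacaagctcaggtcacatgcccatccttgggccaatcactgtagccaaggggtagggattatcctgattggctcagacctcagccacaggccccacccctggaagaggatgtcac
These runs hold 27 CpGs in CHST9, 7 in NCK2, 3 in POF1B, 7 in FAM133A and 3 in LINC01404. The highest GC content was that of PARVB (82.0%, with 46 CpGs in its 300 bases), and the lowest that of FAM133A (37.3%). ATP8B2 and PARVB each had a CpG-rich and a CpG-poor start. Short motifs were searched on both strands, again with unequal numbers of windows per gene. TGANTCA, the core AP-1 element bound by FOS and JUN, was in the window of 0 of 17 genes, against 7.11% of genes meeting the WT minimum and 9.37% of all genes. CACGTG, an E-box, was found in 0 of 17 (12.4% and 8.77%). TATAAA was found in the window of FAM133A alone, 5.88% of the 17 (8.56% and 14.0%). That match does not lie within the 250 bases printed above. With 1 match in all, no matches overlapped, and a missing match says only that these letters are not in the window.

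**Figure D3:**
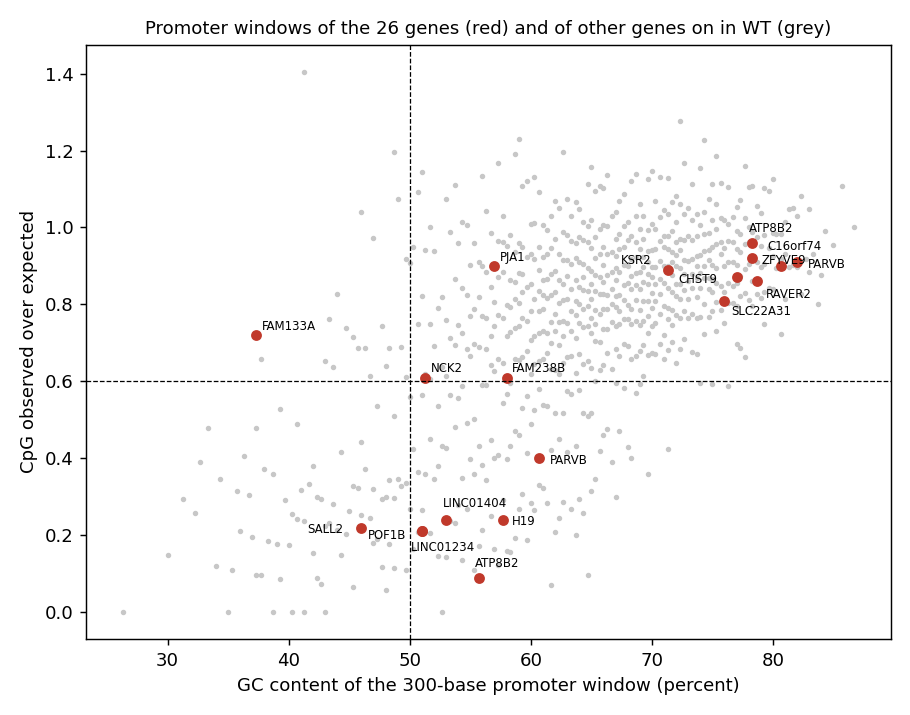
GC content in percent (x) and CpG observed over expected (y) of the 300-base promoter windows of the 17 matched genes (19 windows, red, named) and of a sample of other genes that met the WT minimum (grey); dashed lines mark 50% and 0.6. Red points lie both in the dense CpG-rich cloud at the upper right and in the CpG-poor area under 0.6. SALL2, POF1B, LINC01234, LINC01404 and H19 sit in that area, with the CpG-poor windows of ATP8B2 and PARVB.

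Among membrane and metabolic genes, ATP8B2 had the most reads. ATP8B2 encodes a P4-type ATPase that flips phospholipids across the membrane. It had 55 and 63 counts in C1 and 38 and 126 in C2, against 877 and 1359 in WT, which was 21.8-fold lower in C1 and 14.6-fold lower in C2. It stayed above 1 CPM in all clone libraries, at 1.48 and 2.11 CPM in C1 and 1.27 and 3.88 in C2, against 28.5 and 49.4 in WT. Its clone libraries were all below both WT libraries, a gap that follows largely from the rule. The second library was the higher in each group. SLC22A31, a member of the SLC22 family of organic ion transporters, had 9 and 14 counts in C1 and 9 and 7 in C2, against 287 and 116 in WT. CHST9, which adds sulfate to N-acetylgalactosamine on glycans, had 0 counts in all 4 clone libraries and 37 and 48 in WT, at least 32.6-fold lower in C1 and 30.3-fold in C2 (against 3 counts over a clone). With 0 counts in a clone, such a bound follows from the WT reads and the library depth alone.

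Adaptors and scaffolds made up the next group. NCK2 encodes an adaptor whose SH2 and SH3 domains join receptor tyrosine kinases to actin regulators. NCK2 had 0 counts in all clone libraries, against 137 and 168 in WT, at least 117-fold lower in C1 and 109-fold in C2. PARVB, beta-parvin of focal adhesions, had 0 and 0 counts in C1 and 1 and 2 in C2, against 73 and 31 in WT. The WT libraries of PARVB differed more than those of NCK2. That both stood above the clones is set by the rule. POF1B, an actin-binding protein linked to ovarian failure, had 0 counts in all 4 clone libraries, against 189 and 215 in WT (at least 155-fold lower in C1 and 144-fold in C2).

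ZFYVE9, also called SARA, presents SMAD2 and SMAD3 to the activated TGF-beta receptor. Its counts were 1 and 1 in C1 and 0 and 0 in C2, against 106 and 192 in WT. On 2 counts, the ratio for C1 was 171-fold lower with a 95% counting interval of 47.0 to 1420, and C2 was at least 106-fold lower. KSR2, a scaffold of the RAF, MEK and ERK kinases, had 1 and 3 counts in C1 and 2 and 0 in C2, against 40 and 42 in WT. PJA1, a RING-type ubiquitin ligase, had 3 and 6 counts in C1 and 6 and 8 in C2, against 72 and 110 in WT, and was among the genes nearest to the ceiling.

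Of the nuclear regulators, SALL2 is a zinc finger transcription factor of the spalt family. SALL2 had 0 and 1 counts in C1 and 1 and 2 in C2, against 90 and 105 in WT. CDYL2, a chromodomain protein that binds methylated histone tails, had 0 counts in all 4 clone libraries and 51 and 28 in WT (at least 30.3-fold lower in C1 and 28.2-fold in C2). RAVER2, a partner of the splicing repressor PTB, had 2 and 2 counts in C1 and 0 and 1 in C2, against 49 and 40 in WT. In all 3 genes the groups did not overlap, which the rule itself requires.

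Non-coding RNAs supplied the second highest read number of the set. RP11-314O13.1, now named ARLNC1 and known as an androgen-induced long non-coding RNA of prostate cells, had 6 and 5 counts in C1 and 5 and 9 in C2, against 1210 and 880 in WT. That is 219-fold lower in C1 and 160-fold lower in C2. RP11-438N16.1, now LINC01234, had 0 and 2 counts in C1 and 0 and 1 in C2, against 213 and 239 in WT. H19, an imprinted non-coding RNA expressed from the maternal copy, was nearer to the ceiling, with 5 and 5 counts in C1 and 4 and 10 in C2, against 89 and 125 in WT. IGF2, its imprinted neighbour on the paternal copy, was at 146% of WT in C1 and 132% in C2, and its libraries overlapped, with 211 and 699 counts in C1, 136 and 710 in C2, and 288 and 292 in WT. RP11-18F14.2 had 0 counts in all clone libraries, against 97 and 103 in WT, and RP1-46F2.3 likewise, against 31 and 36. LINC00202-2, now FAM238B, had 0 and 1 counts in C1 and 0 and 1 in C2, against 52 and 61 in WT, while its near copy LINC00202-1 had 34 and 22 counts in C1, 20 and 57 in C2, and 6 and 13 in WT. Counts of such near copies depend on how shared reads were assigned.

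KRT8P14, a processed pseudogene of keratin 8, had 16 and 3 counts in C1 and 8 and 9 in C2, against 261 and 73 in WT. Its parent KRT8 was read at 1500 CPM in C1, 1420 in C2 and 1250 in WT, so the reads of the pseudogene did not follow those of the parent, and their assignment is uncertain. C16orf74, a small protein, had 4 and 1 counts in C1 and 3 and 4 in C2, against 77 and 40 in WT. FAM133A, an X-linked gene of the cancer-testis class, had 0 counts in all 4 clone libraries and 274 and 175 in WT, at least 172-fold lower in C1 and 160-fold in C2. This is the largest bound among the 7 genes at 0 because FAM133A had the most WT reads of them, and it does not rank their loss.

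The globin cluster on chromosome 11 gave 4 of the 26 genes, lying next to each other on 1 strand. HBE1, the embryonic epsilon globin, had 0 and 1 counts in C1 and 1 and 4 in C2, against 506 and 697 in WT. On its 1 count the ratio for C1 has a 95% counting interval of 248 to 54700-fold lower, and C2 was 257-fold lower. HBG2, the fetal gamma globin, had 2 and 0 counts in C1 and 0 and 1 in C2, against 40 and 42 in WT. The olfactory receptor gene OR51B4 had 0 and 1 counts in C1 and 2 and 2 in C2, against 61 and 40 in WT. AC104389.28, now OR51B5, had 1 and 1 counts in C1 and 1 and 1 in C2, against 202 and 210 in WT. The gene models of HBG2 and HBE1 overlap in GENCODE 29, as do those of HBE1 and OR51B4, so 1 transcript could give reads to several of them. OR51B2, of the same cluster, had 0 counts in all clone libraries and 4 and 6 in WT, below the minimum. HBB, HBD, HBG1, HBA2, HBM and HBZ were at 0 in all 6 libraries, and the erythroid factors GATA1 and KLF1 had at most 5 counts in any library. HBG2 reads stood beside 0 for HBG1, its near-identical copy, so the HBG2 value is uncertain. The nearest tested genes outside the cluster, OR52E2 and UBQLNL, were at 72.5% and 197% of WT in C1, and 111% and 198% in C2.

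**Figure D4:**
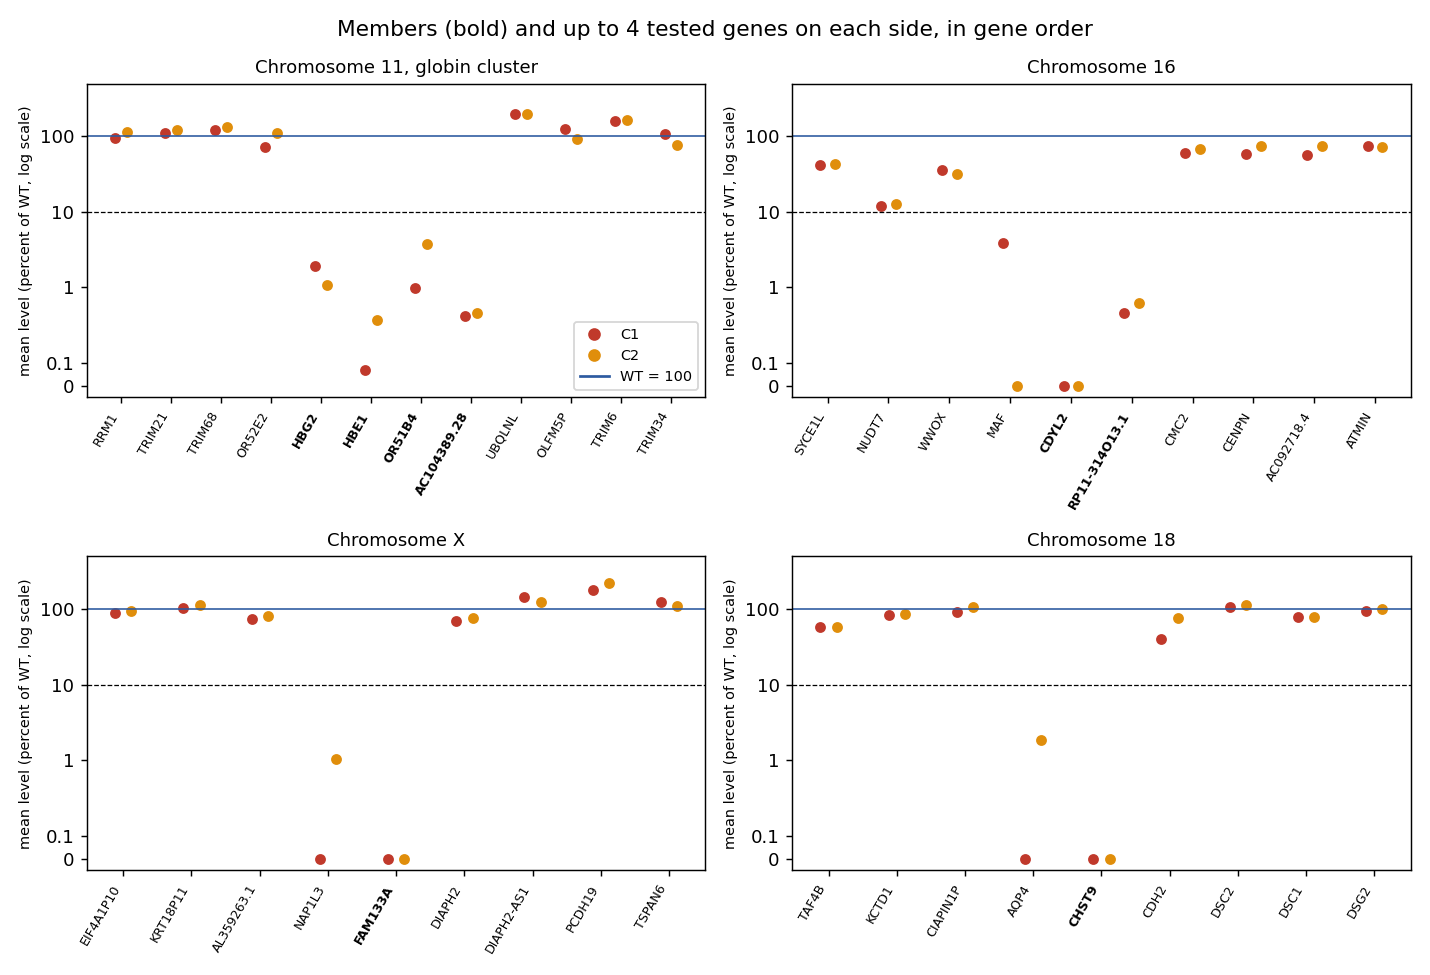
Mean level in C1 (red) and C2 (orange) as a percent of WT on a log scale (0 drawn at the bottom, dashed line at 10%, WT at 100), for members (bold names) and up to 4 tested genes on each side in gene order, in 4 stretches. The low values cover 4 adjacent genes in the globin cluster, CDYL2 and RP11-314O13.1 with MAF on chromosome 16, FAM133A with NAP1L3 on chromosome X, and CHST9 with AQP4 on chromosome 18, while the other genes drawn lie above the dashed line.

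Chromosome 11 held 5 of the 26 genes (19.2%, against 5.42% of genes meeting the WT minimum), chromosome 16 held 4 (15.4% against 4.49%) and chromosome X held 4 (15.4% against 3.11%). On chromosome 11, 4 of the 5 are the adjacent genes of the globin cluster, which may share reads. The share there therefore does not count separate loci. CDYL2 and RP11-314O13.1 lie next to each other on chromosome 16. The other genes were scattered, so the genes beside them were measured: the nearest tested gene on each side that is not one of the 26, 42 genes in all. Relative to WT, the median log2 difference of these 42 was -0.06 for C1 and -0.07 for C2, against -0.01 and 0.01 for all genes tested. In both clones 35 of the 42 kept at least 50% of the WT mean. A log2 difference below -1 was found for 6 of the 42 in C1 and 5 in C2, MAF among them. Of all genes tested, 5.6% in C1 and 4.43% in C2 lay that low, so the neighbours held more such genes. MAF, 1 of the 42, met the values of the rule itself and had been left out by its symbol, so calls are counted over the other 41. In edgeR 0 of 41 were called in either clone at an adjusted p below 0.05, where 0.0117% of 17129 genes were called in each clone (RP11-314O13.1 and AC104389.28, which the rule itself chose). Of the 41, 7 in C1 and 5 in C2 had an unadjusted p below 0.05, and DESeq2 called AQP4 and NAP1L3 in C1 (1.58% of all genes) and NAP1L3 in C2 (1.22%). With the replicate number as a block, 6 of 41 fell and 1 rose in C1, where 7.03% of all genes were called (4.07% lower, 2.96% higher). In C2, 4 fell and 0 rose, where 4.54% of all genes were called (2.59% lower, 1.94% higher).

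Of the 42 neighbours, 3 were at or below 10% of WT in both clones. NAP1L3, a nucleosome assembly protein gene beside FAM133A, had 0 and 0 counts in C1 and 0 and 1 in C2, against 62 and 26 in WT, with a blocked adjusted p of 0.000572 in C1 and 0.00137 in C2 (edgeR). AQP4, a water channel gene beside CHST9, had 0 and 0 counts in C1 and 0 and 1 in C2, against 16 and 31 in WT (blocked adjusted p 0.0019 and 0.00446, edgeR). MAF, a bZIP transcription factor gene beside CDYL2, had 0 and 9 counts in C1 and 0 and 0 in C2, against 82 and 140 in WT, which is given with no test. NAP1L3 and AQP4 missed the WT minimum in 1 library. LINC01204, beside KRT8P14, was called lower with the block, and its mean CPM was 13.2% of WT in C1 and 8.2% in C2. GINS2, a replication factor gene beside C16orf74, was called lower with the block in both clones (log2 difference -1.41 in C1 and -0.90 in C2), and its WT libraries differed widely (1370 and 242 counts). In C1 and not in C2 the block also called CDH2 beside CHST9 (40.3% of WT) and CMC2 beside RP11-314O13.1 (60.9%) lower. FHL2 beside NCK2 (150% of WT) was called higher in C1 alone. In C2, CDH2 was at 76.1% of WT, CMC2 at 68.7% and FHL2 at 124%. The test of C2 against C1 called 0 genes. With 2 libraries a group, that does not show that the clones were alike for these genes.

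**Figure D5:**
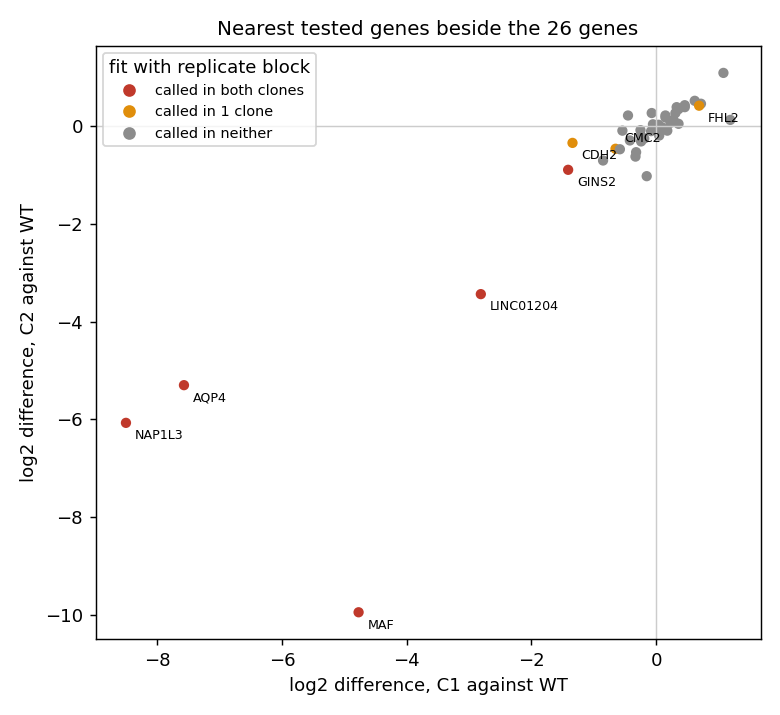
Log2 difference from WT in C1 (x) and C2 (y) of the 42 nearest tested genes beside the 26 genes, from edgeR with the replicate block; red points were called in both clones, orange in 1 and grey in neither. Most points lie near 0 on both axes, and NAP1L3, AQP4, MAF and LINC01204 lie far down the diagonal.

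Further out, single genes near other members were low too. AK4, a mitochondrial adenylate kinase and the second tested gene beyond RAVER2, was at 7.87% of WT in C1 and 11.6% in C2, and DNAJC6, the next one, at 22.9% and 32.6%. JAK1, which lies between RAVER2 and AK4, was at 116% and 112%, so the low genes there were not contiguous. Near CDYL2, NUDT7 was at 12.1% and 12.7% and WWOX at 35.6% and 31.8%. The arm of chromosome 16 from WWOX to the end was lower as a whole. Its 67 tested genes with a mean log2 CPM above 2 had median log2 differences of -0.34 (C1) and -0.40 (C2) from WT (0.788 and 0.757 of WT), against -0.11 and -0.14 for the 463 genes before it. This stretch was chosen after its values were seen. It holds CDYL2, RP11-314O13.1, C16orf74 and SLC22A31, whose levels of 0% to 5.65% of WT lie far below the shift of the stretch. How far that shift takes part in their loss was not tested.

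Family members and binding partners of the lost genes were mostly kept. Of 28 paralogs listed, 17 could be tested, with median log2 differences of 0.19 (C1) and 0.16 (C2) from WT. In edgeR 0 of 17 were called (2 in each clone at an unadjusted p below 0.05, and 1 by DESeq2); with the block, 1 fell and 2 rose in each clone. The 1 that fell was SALL4, a stem cell factor of the same family as SALL2, with 38 and 15 counts in C1 and 14 and 15 in C2, against 165 and 88 in WT (17.8% and 10.9%). Blocked, its log2 difference from WT came to -2.39 (SE 0.35, adjusted p 0.00137, edgeR) in C1 and -3.04 (SE 0.38, adjusted p 0.000459) in C2. The other spalt genes were barely read, SALL1 at 0 in all libraries and SALL3 at 2 to 9 counts. Of the 2 that rose, CHST11, a chondroitin sulfotransferase, was at 152% of WT in C1 and 157% in C2.

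For the adaptors and scaffolds, the closest relative stayed near the WT level. NCK1 was at 92.3% of WT in C1 and 97.7% in C2, and PARVA at 93.2% and 102%. ZFYVE16 was at 96.2% and 93.8%, and KSR1 at 110% and 104%. CDYL was at 105% and 103%, PJA2 at 89.7% and 92.0%, and FAM133B at 106% in both clones. None of these passed the test in edgeR with or without the block, and their values give the size of any difference. RAVER1 was lower, at 63.2% and 62.5%, without passing the test.

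Of 33 partners listed, 31 could be tested, with median log2 differences of 0.07 (C1) and 0.09 (C2) from WT. In edgeR 0 were called (0 in C1 and 1 in C2 at an unadjusted p below 0.05, and 0 by DESeq2). SMAD2, which ZFYVE9 binds, was at 93.6% and 92.9% of WT, and SMAD3 at 112% and 122%. ILK, the kinase-like partner of PARVB, was at 93.6% and 87.2%. MAP2K1, bound by the KSR scaffolds, was at 88.3% and 94.6%. With the block 1 partner rose, ARHGEF6, an exchange factor that binds PARVB, at 220% of WT in C1 (adjusted p 0.0296, edgeR) and 237% in C2 (0.0162).

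Gene lists around the lost genes, and lists that hold none of them, were read in the same way. Outside the 26 genes, and leaving aside the zinc finger genes, the lists held 208 tested genes, of which edgeR called 0 in either clone without the block (19 in C1 and 21 in C2 at an unadjusted p below 0.05, and 6 in each by DESeq2). Shares of list members called with the block stand against 2.96% of all genes higher and 4.07% lower in C1, and 1.94% and 2.59% in C2, and most lists are too small for 1 or 2 calls to be set apart from these shares. Percentages of WT are ratios of mean CPM, to which no block was applied. Of 13 other flippase genes, 2 rose in both clones: ATP8A1 to 157% and 144% of WT, and TMEM30B, a flippase beta subunit, to 175% and 180%. Of 7 other SLC22 transporters, 0 were called with the block. Of 20 other genes of a list of X-linked genes in or near Xq21, which holds FAM133A and POF1B, 3 rose in both clones and 1 fell. CYSLTR1, a leukotriene receptor, rose to 295% and 292% of WT, SRPX2 to 157% and 146% and SYTL4 to 157% and 161%, while NAP1L3 fell. Of 14 other cancer-testis genes, 1 rose and 1 fell in C1 and 2 rose in C2, with SPANXD at 433% and 536% of WT. Of 18 ligands of natural killer and T cells 1 fell, NCR3LG1 (7.72% of WT in C1 and 8.80% in C2), and of 3 PNMA genes 1 fell, PNMA2 (9.75% and 9.85%). Both are the genes given above as just outside the ceiling, so their low values were known from the rule. Their lists hold 0 of the 26 genes and were chosen with earlier results known. These counts are therefore not read as results about the 2 families.

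Chromatin regulators that can silence genes were measured at the RNA level. Of 19 genes of DNA methylation, 0 were called in either clone with or without the block, and the medians of the log2 difference were -0.04 (C1) and 0.06 (C2). Of 20 genes of H3K9 methylation and KRAB repression 0 were called as well, with medians of 0.14 and 0.16. Unadjusted, 1 DNA methylation gene in C2 and 0 in C1 had a p below 0.05 in edgeR, and 0 genes of the H3K9 list in either clone; DESeq2 called 0 in both lists. Of 29 Polycomb genes 1 rose with the block, JARID2, a subunit of PRC2, where 2.96% of all genes were called higher in C1 and 1.94% in C2. Its mean CPM was 141% and 148% of WT. Without the block edgeR called 0 of the 29 (2 in C1 and 3 in C2 at an unadjusted p below 0.05), and DESeq2 called 0. Levels of RNA do not show the activity of these enzymes.

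The rule set a ceiling on both clones, which leaves little room for a difference between them, and 7 of the 26 genes were at 0 in both. In edgeR's test of C2 against C1 over 17129 genes, 0 of 26 were called and 0 of all genes (0.0%). Unadjusted, 61 genes and 0 of the 26 had a p below 0.05, and DESeq2 and the fit with the block called 0 of the 26 as well. The mean CPM was higher in C2 for 12 genes, lower for 7 and at 0 in both clones for 7. At these counts the absence of a call does not show that the clones were alike. The 95% interval of the log2 difference was -0.79 to 1.84 for ATP8B2, -0.60 to 1.46 for RP11-314O13.1, -0.89 to 2.00 for H19 and -0.82 to 2.22 for PJA1. The smallest p was 0.0708, for PARVB (adjusted p 1.0, edgeR), which had 0 counts in C1 and 3 in C2.

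Replicate 2 against replicate 1, with the group as a term, gave 4229 calls among 17129 genes in edgeR (24.7%), and 2 of the 26 (7.69%). These shares cannot be compared, since the rule left the 26 genes with few reads in 4 of the 6 libraries. ATP8B2 was higher in replicate 2 (log2 difference 0.87, SE 0.22, adjusted p 0.0133, edgeR), in 3 of 3 groups. KRT8P14 was lower in replicate 2 (log2 difference -1.46, SE 0.38, adjusted p 0.0149, edgeR), in C1 and WT, while C2 had 9 against 8 counts. The call of ATP8B2 was lost without C2 replicate 1 or 2 (adjusted p 0.173 and 0.172, edgeR). The call of KRT8P14 was lost without C2 replicate 1 or 2 (adjusted p 0.0545 and 0.0511, edgeR) and without WT replicate 1 or 2 (0.25 and 0.218), and SLC22A31 joined without C1 replicate 1 or 2 (0.0217 and 0.0236). For the rest, values in the clones are too low to show a difference of this kind, and WT carries the comparison. The ratio of the second to the first WT library ran from 0.312 for KRT8P14 to 2.02 for ZFYVE9, with a median of 1.18, and 22 of 26 genes agreed within 2-fold, against 92.4% of all genes meeting the WT minimum.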

How the data were processed

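The authors deposited raw counts of reads per gene, 1 column per library, with 5 HTSeq totals that are not genes and were left out; reads in genes made up 77.6% to 78.7% of those listed. Per the submitters' processing notes, HTSeq 0.5.3, STAR 2.5.0a and cutadapt 1.6 were used, on build hg19. Strand setting and annotation release are not given in the sources used here, so reads in overlapping genes may count for either. Groups come from the sample titles.

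The members, gene lists, neighbours and tests were chosen with earlier results of these data known. CPM of single genes used the library sum over genes. Tests used edgeR 4.0.16 in R 4.3.3 (filterByExpr, 17129 genes, TMM scaling, robust quasi-likelihood F test, 1 mean per group over all 6 libraries). P-values had a Benjamini-Hochberg adjustment over all genes tested, with calls below 0.05. DESeq2 1.42.0 was an alternative. The edgeR fit without the block was also run on simulated counts with an assumed spread and no replicate effect. That run does not show how the fit performs on these libraries, where same-numbered replicates deviated together. Library-sum scaling puts the median tested gene at a log2 difference of -0.1 from WT in both clones, which TMM removes. All 26 genes passed filterByExpr. Percents of WT are on the first scale, log2 differences on the second. Same-numbered libraries deviated together across genes (correlation 0.584 between C1 and WT, 0.634 between C2 and WT, 0.701 between C2 and C1), so the replicate number was taken to pair the libraries. With 2 libraries a group these values mirror each other, and the labels do not say what the number marks. Replicates differed beyond sampling noise (chi-square per gene 119 in C1, 105 in C2, 90.7 in WT). P-values measure only the spread between these libraries, which may be technical.

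A fold against 0 counts used 3 counts over the group; with 1 to 3 counts the ratio has an exact 95% interval, and intervals cover counting error only. Gene order, type and exon length came from GENCODE 29, on another build than the files, and matched 98.0% of genes at the WT minimum. Genes were named by rule: the 20 named genes with most WT reads, all at 0 in the clones, those called between clones or replicates, adjacent ones, those nearest the ceiling, and 5 clone-based or pseudogene loci. 1 member is counted among the 26 and not reported here. RP1-46F2.3, DHRS9, NTNG1, SALL4 and genes beyond the nearest neighbour were named after their values were seen. Paralogs and partners were listed by family and known binding once the members were known.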

Additional observations from a re-analysis of the deposited data

How the results depend on the processing

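The set held 16 genes with a WT minimum of 2 CPM and 55 with a ceiling of 20% of WT. It held 23 with TMM-scaled CPM (ATP8B2, CDYL2 and RP1-46F2.3 lost), 35 with a minimum of 0.5 CPM, 18 with a ceiling of 5%, and 26 to 32 with 1 library left out, where the losses were KRT8P14 and SLC22A31 (without WT replicate 1) and ATP8B2, H19 and PJA1 (without WT replicate 2). Calls over all genes depended on the model. Against 2 genes in C1 and 2 in C2, the replicate block gave 1204 and 777, DESeq2 270 and 209, no filter on low counts 296 and 209, and leaving out 1 library 0 to 1 in C1 and 0 to 0 in C2; the cause was not tested. Calls of C2 against C1 stayed at 0 in every alternative run, for all genes and for the 26. Replicate 2 against replicate 1 gave 617 to 4849 genes and 0 to 3 of the 26 with 1 library left out, lowest without C2 replicate 1 (617) and C2 replicate 2 (730). The neighbours' median log2 difference ran from -0.1 to 0.03 in C1 and from -0.17 to -0.05 in C2 with 1 library left out. The share of CpG-rich promoters was 52.9% under stricter limits. Depth limits the folds: at 0 to 3 reads in a clone only a bound or a wide interval can be given.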

Other observations

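Among genes next to the 26, LINC01204, a long non-coding RNA beside KRT8P14 on chromosome X, had 11 and 2 counts in C1 and 4 and 3 in C2, against 58 and 24 in WT. NUDT7, a peroxisomal coenzyme A hydrolase gene that lies a few tested genes before CDYL2 on chromosome 16, had 5 and 4 counts in C1 and 2 and 7 in C2, against 36 and 29 in WT. AK4 had 41 and 44 counts in C1 and 49 and 70 in C2, against 490 and 463 in WT. These 3 genes were singled out for their low clone values. That their clone libraries lay below both WT libraries follows largely from that choice. The share of all tested genes with such a gap was not counted.

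Among protocadherin genes, which code for cell adhesion proteins, 57 could be tested. With the replicate block PCDH20 was called higher, at a mean CPM of 259% of WT in C1 and 197% in C2 (blocked adjusted p 0.000365 and 0.0042, edgeR), and PCDHB6 lower, at 39.5% and 48.6% (0.00612 and 0.0407). In all, 1 was called higher and 1 lower in C1, and 2 higher and 4 lower in C2. Over all genes 2.96% were called higher and 4.07% lower in C1, and 1.94% and 2.59% in C2, and nothing particular to protocadherins is read from these counts. Without the block edgeR called 0 of them in either clone (4 in C1 and 5 in C2 at an unadjusted p below 0.05), and DESeq2 called PCDH20 in both.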
